A study of Mus musculus with 12 samples.

Results

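The stress keratins of wounded epidermis are Krt6a, Krt6b, Krt16 and Krt17, and the 4 genes were taken by name from a count table of 49492 mouse genes. Their m6A peaks were taken from a table of 42989 peaks by the gene symbol in the peak name, which gave 4 peaks: 1 in Krt6a, 1 in Krt16, 2 in Krt17 and 0 in Krt6b. The libraries came from skin of UV-exposed mice and of control mice, with 3 samples in each condition. Each sample gave an IP library, enriched with an antibody against N6-methyladenosine (m6A), and an input library of the same RNA. The sources used here do not state strain, age, body site, or the type, dose and timing of UV, and name no treatment shared by the groups. The labels do not say whether the samples are separate animals, so p-values measure the spread between samples, which may be technical.

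Keratins form filaments from 1 type I and 1 type II chain, and in resting skin Krt5 and Krt14 fill the basal layer while Krt1 and Krt10 fill the layers above. Krt6a and Krt6b are type II and Krt16 and Krt17 are type I, and wounding, barrier damage or inflammation switches them on in the epidermis between the hair follicles. Without injury they are made mainly in hair follicles, nails and the skin of palms and soles, and Krt17 marks skin appendages most broadly. In humans, mutations of KRT6A, KRT6B, KRT16 or KRT17 cause pachyonychia congenita, a disorder of nails and thickened sole skin. m6A is a methyl mark on adenosines of messenger RNA, and enrichment of a transcript in IP over input is a relative measure of it.

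Reads in genes numbered 24126662 to 92163619 per library. The 4 genes together held 1.05%, 0.951% and 0.436% of the input reads of UV samples 1 to 3, against 0.205%, 0.0991% and 0.491% in control samples 1 to 3. Defining genes of skin were abundant in every input library. Krt14, for example, had between 1747 and 9259 CPM, where CPM is the count scaled by library size and TMM factors to a common total per library. Control sample 2 stood apart with the highest summed level of 4 skeletal muscle genes, 8559 CPM against 1097 to 4446 CPM in the other 5 samples. Over all 24099 genes tested, 728 were higher and 676 lower in UV input libraries at an adjusted p below 0.05. These are 3.02% and 2.81% of the genes tested, 5.83% in all, and with library size only as the scaling 455 were higher and 1019 lower.

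Krt6a, Krt6b and Krt16 had about 4 times as much transcript in UV as in control skin on the fitted scale, while Krt17 was nearly level. None of the 4 changes passed the test, and control samples spread widely in the first 3 genes. In bulk skin, fewer cells of a type and less RNA per cell cannot be told apart. The plot of input levels by library shows this spread.

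**Figure D1:**
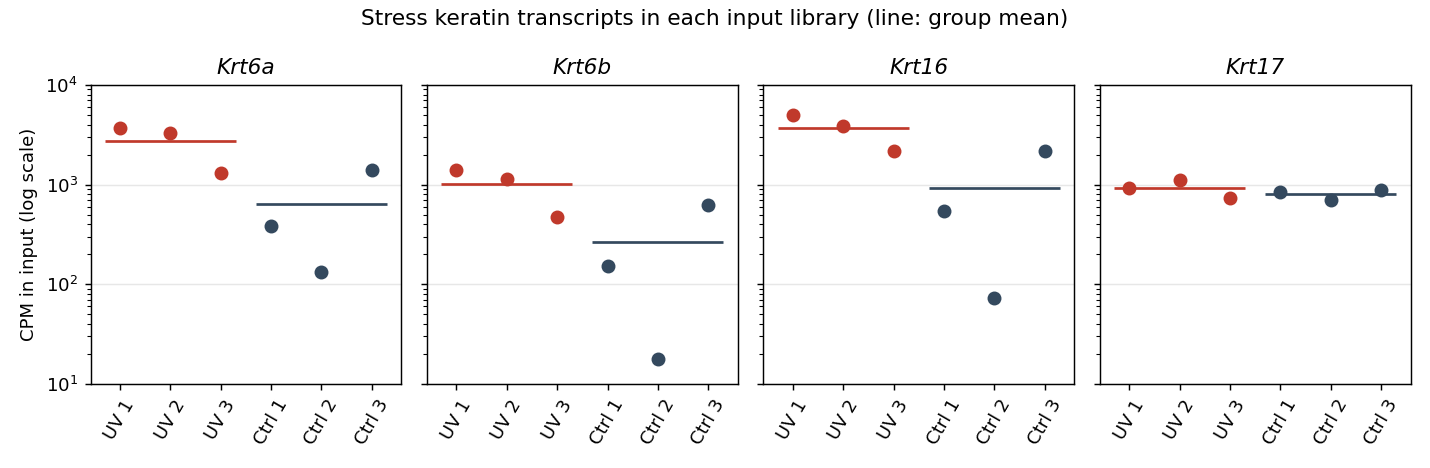
Level of each stress keratin in the input libraries, in CPM on a log axis, with 1 point per sample and a line at the group mean (n = 3 per group). UV samples are on the left in red and control samples on the right in dark blue. Control samples 2 and 3 differ 10.7-fold in Krt6a, 35.1-fold in Krt6b and 29.8-fold in Krt16, and Krt17 points lie together.

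Among the type II chains, Krt6a (chromosome 15, 101689932 to 101694307, minus strand, GRCm38, 9 exons) had 3697, 3278 and 1299 CPM in UV samples 1 to 3, against 382, 131.1 and 1403 CPM in control samples 1 to 3. UV sample 3 lay below control sample 3, so the groups overlapped. The means were 2758 ± 1281 CPM in UV and 639 ± 674 CPM in control (SD, n = 3 each). The log2 change was 2.11 (SE 0.76, adjusted p = 0.132, edgeR's quasi-likelihood test with Benjamini-Hochberg adjustment over all genes).

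Krt6b, its near-identical neighbour 9642 bases away (101676034 to 101680289, minus strand, 9 exons), had 1403, 1147 and 478 CPM in UV samples against 152.8, 17.6 and 619 CPM in control samples. Control sample 2 was lowest of all and UV sample 3 again lay below control sample 3. The log2 change was 1.94 (SE 0.97, adjusted p = 0.251). Reads of the 2 genes can be shared, and the predicted gene Gm44383 lies within Krt6b on the other strand. Counting both keratins as 1 gene gave a log2 change of 2.06 (adjusted p = 0.158). Per kilobase, Krt6b stood at 38.4%, 35.5% and 37.2% of Krt6a in UV samples, against 40.5%, 13.6% and 44.7% in control samples. The pair thus kept a like proportion in 5 samples and a lower share of Krt6b in control sample 2.

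Among the type I chains, Krt16 (chromosome 11, 100246091 to 100248902, minus strand, 8 exons) had 4997, 3859 and 2190 CPM in UV samples, against 541, 73.3 and 2184 CPM in control samples. The groups did not overlap, but UV sample 3 and control sample 3 were almost equal. Of all genes tested, 15.5% had every UV value above every control value. The means were 3682 ± 1412 CPM in UV and 933 ± 1108 CPM in control (SD, n = 3 each), a log2 change of 1.98 (SE 0.92, adjusted p = 0.224).

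Krt17 (chromosome 11, 100256217 to 100261029, minus strand, 8 exons), which starts 7314 bases beyond Krt16, had 931, 1108 and 727 CPM in UV samples. In control samples it had 844, 699.7 and 879 CPM, within 1.26-fold of each other. UV sample 3 lay within the control range, and UV samples 1 and 2 above it. The log2 change was 0.19 (SE 0.16, adjusted p = 0.498).

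Among the fits that dropped genes of low counts, only the fit without control sample 3 called any of the 4 genes. Without that sample, Krt6a (log2 change 3.43, adjusted p = 0.0184), Krt6b (3.56, adjusted p = 0.0473) and Krt16 (3.58, adjusted p = 0.0365) passed the test of edgeR, whereas Krt17 did not (0.26, adjusted p = 0.392). In that comparison 5.02% of genes were called higher and 3.51% lower. Without control sample 2, the log2 changes were 1.63 for Krt6a, 1.39 for Krt6b and 1.44 for Krt16, and none was called. Krt6a was also called where genes of low counts were kept (2.12, adjusted p = 0.0339), where 2.99% of genes were called higher.

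**Figure D2:**
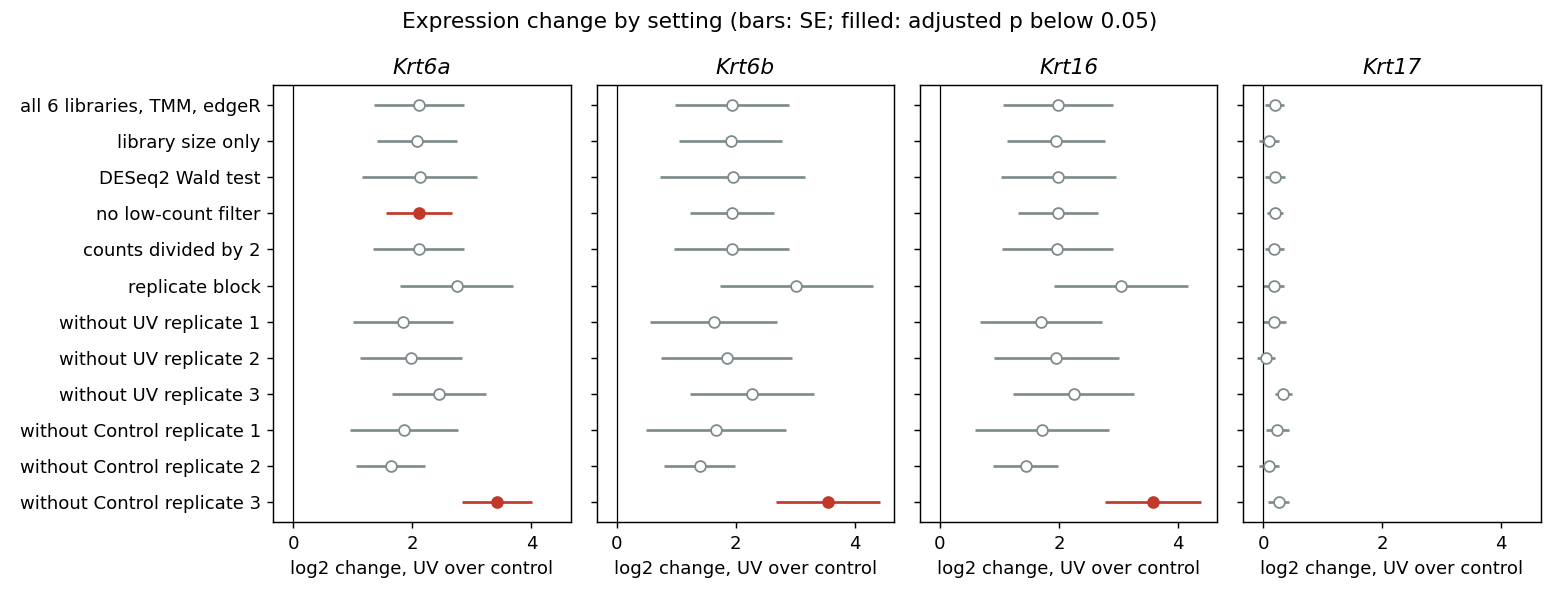
Log2 change in input, UV over control, for each stress keratin under the named settings, with bars for SE and filled red points where the adjusted p is below 0.05. Filled points appear without control replicate 3 for Krt6a, Krt6b and Krt16, and for Krt6a also with no low-count filter.

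Ratios within a sample remove the scaling of the library. Per kilobase, Krt16 over Krt17 was 5.32, 3.45 and 2.99 in UV samples, against 0.635, 0.104 and 2.46 in control samples. Krt16 was therefore the more abundant of the type I stress keratins in all UV samples and in control sample 3, and Krt17 in control samples 1 and 2. The ratio did not overlap between groups, and the exact two-sided permutation p of 0.10 is the smallest that 3 against 3 samples can give (0.24 after Benjamini-Hochberg adjustment over 6 ratios). Krt16 over Krt14, the constitutive type I chain of basal cells, was 0.606, 0.612 and 0.471 in UV samples, against 0.188, 0.0471 and 0.433 in control samples, also without overlap (exact permutation p = 0.10, adjusted 0.24).

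Krt6a over Krt5, its constitutive type II counterpart, was 0.970, 1.07 and 0.406 in UV samples, against 0.160, 0.0760 and 0.497 in control samples, with overlap. Krt17 over Krt14 had the opposite order, at 0.114, 0.177 and 0.158 in UV samples against 0.296, 0.454 and 0.176 in control samples. UV sample 2 and control sample 3 met in that ratio. The exact permutation p was 0.20 for both, 0.24 after adjustment.

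On the per-kilobase scale, mean levels in UV skin ran from Krt16 (2353 CPM per kilobase) through Krt6a (1223) and Krt17 (595) to Krt6b (453). In control skin the order was Krt16 (596), Krt17 (521), Krt6a (283) and Krt6b (118). These orders of means did not hold in every sample. In UV sample 1, Krt6b (630.2) exceeded Krt17 (600.3), and in the other UV samples Krt17 was the higher. In control samples 1 and 2 Krt17 was highest of the 4, and in control sample 3 Krt16 (1395) and Krt6a (622) both exceeded it (566). Krt16 was highest in all 3 UV samples.

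The neighbouring keratin genes had log2 changes smaller in size than those of Krt6a, Krt6b and Krt16 and larger than that of Krt17, and the differences between genes were not tested. Krt14, on the side of Krt16 facing away from Krt17, had a log2 change of 1.02 (SE 0.39, adjusted p = 0.149). Krt5, next to Krt6a, had 3699, 2987 and 3111 CPM in UV samples against 2319, 1674 and 2741 CPM in control samples, without overlap (0.54, adjusted p = 0.117). Krt42, next to Krt17, stood at 8.71 ± 2.68 CPM in UV and 4.50 ± 2.09 CPM in control (SD, n = 3 each; log2 change 0.91, adjusted p = 0.140). Krt75, the keratin of the companion layer of the hair follicle and the next keratin gene before Krt6b, had a log2 change of −0.56 (adjusted p = 0.235). None of these 4 genes was called.

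Among 24 other genes of wound-activated keratinocytes, the ratio of the highest to the lowest sample was larger within control than within UV for 22 and larger within UV for 2, with no test of spread. No share over all genes is given here, and the direction differed between lists. Control spread was also the larger for 5 of 5 upper epidermis markers. UV spread was the larger for 9 of 10 companion layer and inner root sheath genes and 10 of 12 hair shaft genes. Of 23 genes of the wound-activated list tested, 0 were called in either direction with all samples, and 1 was higher with library size only. The list's median log2 change was 0.59, against −0.02 over all genes. Fabp5, a fatty acid carrier of activated keratinocytes, had 3753, 2887 and 2744 CPM in UV samples against 1066, 727 and 1999 CPM in control samples (1.31, SE 0.33, adjusted p = 0.0549). Its groups did not overlap. The cornified envelope precursor Sprr1a was lower in every UV sample but not called, with a log2 change of −0.52 (adjusted p = 0.092), and the cystatin Stfa3 stood at −0.07 (adjusted p = 0.956). When any 1 sample other than control sample 3 was left out, 0 of these genes were called in either direction. Control sample 3 was the control sample highest in Krt6a, Krt6b and Krt16, so leaving it out favours genes of that order. Beside 5.02% of all genes called higher and 3.51% lower, 8 of these genes were called higher and 0 lower without control sample 3. They were Fabp5 (1.80), the alarmin subunits S100a8 (1.18) and S100a9 (0.91), the small proline-rich genes Sprr2a1 (3.04) and Sprr2d (2.51), the IL-36 cytokine gene Il1f6 (1.77), the transglutaminase gene Tgm1 (0.53) and the defensin gene Defb3. Apart from Fabp5, these were singled out after their values were seen.

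Sprr2a1 had 55.7, 49.6 and 67.6 CPM in UV samples, against 11.7, 1.46 and 59.8 CPM in control samples. Control sample 2 was lowest and control sample 3 as high as the UV samples, the same order of control samples as for Krt16. S100a8 and S100a9 are also neutrophil genes. Of 9 neutrophil markers, which include both, 8 were tested and 0 called with all samples, and without control sample 3 these 2 were the ones called. Summed levels of the 9 were 86.6, 74.7 and 71.0 CPM in UV samples against 44.7, 71.7 and 76.1 CPM in control samples, and the median log2 change of those tested was −0.13.

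Among 15 other epidermal keratins, 0 were called higher and 2 lower, with a median of 0.18. Krt77, a keratin of the upper epidermis, fell (−3.73, adjusted p = 0.00208), and Krt15, of basal and follicle stem cells, fell (−0.72, adjusted p = 0.0361). The call of Krt15 was lost when any 1 sample other than control sample 3 was left out, with adjusted p-values of at most 0.142. Krt1, the abundant chain above the basal layer, had 35810, 22110 and 36126 CPM in UV samples against 13541, 5220 and 24642 CPM in control samples (1.12, adjusted p = 0.191). Its partner Krt10 had a log2 change of 0.62 (adjusted p = 0.302). Without control sample 3, Krt5, Krt14 and Krt1 were called higher.

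Hair follicle sheath genes ran largely opposite to Krt6a, Krt6b and Krt16 across samples. Summed over 10 genes of the companion layer and inner root sheath, UV samples had 21424, 49814 and 52082 CPM and control samples 55905, 73764 and 34997 CPM. UV sample 1, highest in Krt6a, Krt6b and Krt16, was lowest in this sum, and control sample 2, lowest in those 3 genes, was highest. None of the 10 genes was called with all samples (median −0.57), 1 was lower with library size only, and 1, Krt74, without control sample 3. Tchh, which encodes the sheath protein trichohyalin, had a log2 change of −0.40 (adjusted p = 0.551), Krt71 of −0.52 (adjusted p = 0.334) and Krt25 of −0.56 (adjusted p = 0.312). Of 12 hair shaft genes tested, 0 were called, 2 were lower with library size only and 3 without control sample 3 (median −0.31). Krt81, Krt83 and Krt31 led this list and had log2 changes of −0.07, −0.09 and −0.39. Markers of other cell types also differed. Of 5 fibroblast markers 0 were called higher and 2 lower, beside 3.02% and 2.81% of all genes tested. Summed, the 5 had 5945, 6764 and 6984 CPM in UV samples against 9422, 9014 and 8451 CPM in control samples, without overlap. Of all single genes tested, 15.5% had every UV value below every control value. Of 5 T cell markers 0 were called higher and 3 lower (median −2.79), with sums of 3.12, 2.63 and 2.63 CPM in UV samples against 9.52, 10.7 and 11.8 CPM in control samples. Of 4 macrophage markers 1 was called lower. Of 5 basal keratinocyte markers 1 was called higher, the integrin gene Itgb4 (1.03), and 3 without control sample 3. The part of tissue composition in the stress keratin differences was not tested.

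**Figure D3:**
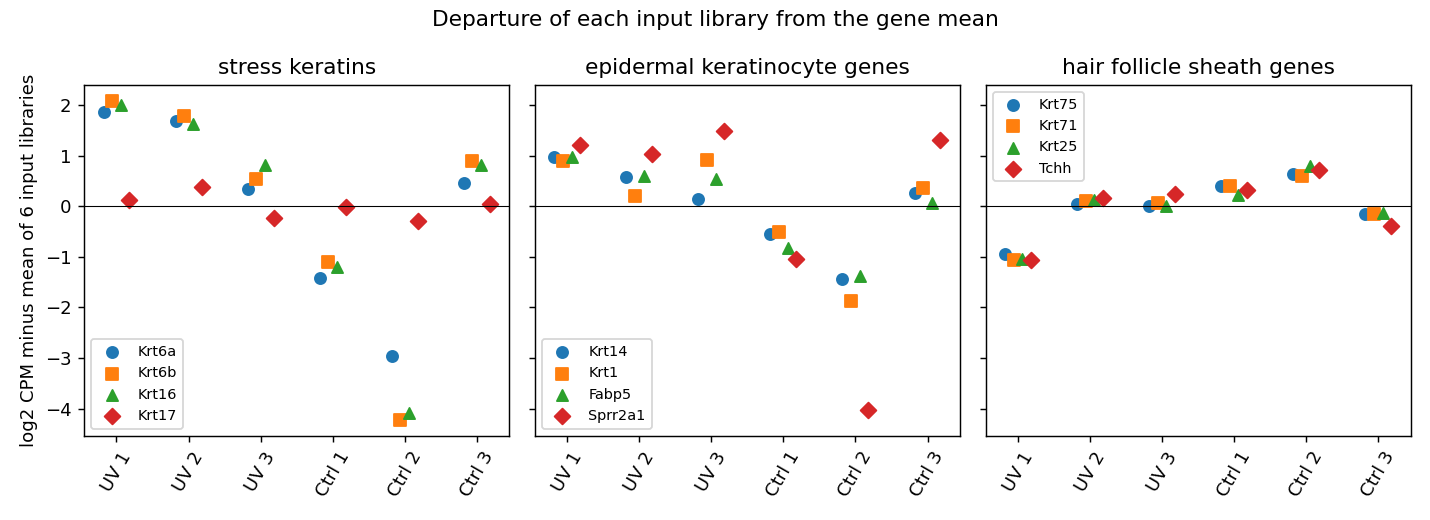
Log2 CPM minus the gene's mean over the 6 input libraries, with 1 point per gene and sample, for the stress keratins, 4 epidermal keratinocyte genes and 4 hair follicle sheath genes. In control sample 2 Krt6a, Krt6b, Krt16 and the 4 epidermal genes drawn are lowest and the 4 sheath genes drawn highest, and Krt17 varies least among the stress keratins. The genes drawn beside the keratins were picked after their values were seen. Other epidermal genes differ, and Sprr1a, not drawn, was highest in control sample 2.

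No gene in the lists of upstream regulators was called with all samples. Epidermal growth factor receptor ligands induce Krt6 and Krt16. Of those and the receptor, 0 of 8 genes were called (median −0.12), and Btc was called lower without control sample 3. Egfr had a log2 change of −0.12 (adjusted p = 0.441), Areg of 0.18 (adjusted p = 0.607) and Ereg of −0.13 (adjusted p = 0.68). Of 15 transcription factor genes known to act on these promoters, 0 were called with all samples (median 0.16). Klf4, a factor of differentiating keratinocytes, stood at 0.57 (adjusted p = 0.0715), Cebpb at 0.38 (adjusted p = 0.154) and Junb at −0.12 (adjusted p = 0.596). Klf4 was among the factor genes called higher without control sample 3. Of 11 cytokine genes that induce stress keratins, 3 passed the low-count filter and 0 were called. These were Il1a (−0.07), Il1b (−0.20) and Tnf (−0.83). Il1b had 5.0, 2.93 and 0.738 CPM in UV samples against 1.23, 1.16 and 7.07 CPM in control samples, so that control sample 3 was highest.

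Of 12 genes for keratin partners and regulators, 0 were called (median 0.19), and 1, the desmosome gene Pkp1, was higher without control sample 3. Dsp, which ties keratins to desmosomes, had a log2 change of 0.41 (adjusted p = 0.118), Sfn, a 14-3-3 protein that binds Krt17, of 0.17 (adjusted p = 0.576), and the envelope gene Ppl of 0.28 (adjusted p = 0.263). Of 10 proliferation genes, 0 were called in any of these fits (median 0.22), among them Mki67 (0.06, adjusted p = 0.751), Top2a (0.21, adjusted p = 0.174) and Pcna (0.12, adjusted p = 0.385). Mki67 had 906, 1074 and 924 CPM in UV samples against 920, 997 and 861 CPM in control samples.

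The genes most like the 4 keratins were ranked by the mean of Pearson's r of log2 CPM with each of them over the 6 input libraries, as a description of shared order among samples of the same libraries. Krt17 itself correlated with the other members at r of 0.68 to 0.74, and those with each other at 0.98 or more. Among 10696 genes compared, the 8 highest included Akr1b8 (mean r 0.94), Mtx2, Klk6, Lamb3, Ddx3x, Ddhd1 and Gsta4 (mean r 0.93). A high r did not mean a like size of change. Log2 changes of the 8 ran from 0.11 for Ddx3x and 0.12 for Mtx2 to 1.94 for Gsta4. Klk6 encodes a secreted skin protease, Lamb3 a chain of the basement membrane laminin, and Akr1b8 and Gsta4 encode enzymes that detoxify reactive aldehydes. Gsta4 had 72.7, 81.9 and 23.2 CPM in UV samples against 9.86, 3.97 and 31.6 CPM in control samples, again with control sample 2 lowest and control sample 3 highest among controls (log2 change 1.94, adjusted p = 0.129). None of the 8 was called with all samples, and Akr1b8 and Gsta4 were among those called without control sample 3.

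Antibody-bound transcripts followed the input. In the IP libraries Krt16 had 3877, 3109 and 1838 CPM in UV samples against 451, 66.5 and 1898 CPM in control samples. UV sample 3 was here below control sample 3. The log2 changes in IP were 2.00 for Krt6a (adjusted p = 0.193), 1.98 for Krt6b (adjusted p = 0.318), 1.87 for Krt16 (adjusted p = 0.302) and 0.16 for Krt17 (adjusted p = 0.63), and none was called, against 2.50% of all genes (1.45% higher, 1.05% lower). Krt6a was called in IP with no low-count filter (2.01, adjusted p = 0.024), where 2.03% of genes were called higher. Krt6a and Krt16 were called higher without control sample 3 (adjusted p = 0.0257 and 0.0413), as were 3.10% of all genes in that fit.

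As whole transcripts, the stress keratins had less signal in IP than in input in every sample, and Krt17, the lowest, was called depleted in both groups. Log2 IP over input of Krt17 was −0.77, −0.75 and −0.71 in UV samples and −0.66, −0.74 and −0.74 in control samples. The fitted values were −0.75 in UV (SE 0.17, adjusted p = 0.00301) and −0.71 in control (SE 0.17, adjusted p = 0.00403), and Krt17 was the only member called in either group. In UV, 49.0% of all genes were called, 24.7% enriched and 24.3% depleted, and in control 50.3% were called, 24.6% enriched and 25.8% depleted. The groups overlapped and the change between them was −0.04 (SE 0.24, adjusted p = 1.00).

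Krt6a had log2 IP over input of −0.30, −0.18 and −0.25 in UV samples, all below −0.11, −0.13 and −0.12 in control samples. Such a lower, separate UV group was found for 9.10% of all genes, and a higher one for 8.09%. Krt16 had −0.27, −0.21 and −0.15 in UV samples against −0.16, −0.03 and −0.09 in control samples, with overlap. Krt6b had −0.32, −0.28 and −0.24 in UV samples, against −0.36, −0.62 and −0.31 in control samples, with overlap. Without pairing, none of these 3 genes was called depleted in either group. With the sample shared by IP and input as a block, all 3 were called depleted, at −0.24 (adjusted p = 3.78e-06) in UV and −0.12 (adjusted p = 0.00554) in control for Krt6a. The block gave −0.28 in UV (adjusted p = 1.11e-05) and −0.39 in control (adjusted p = 4.65e-07) for Krt6b. For Krt16 it gave −0.21 in UV (adjusted p = 3.69e-05) and −0.10 in control (adjusted p = 0.0291), where 30.1% and 31.1% of all genes were called depleted in UV and control. The change of enrichment between UV and control was called for 0.0120% of genes (4.43% at an unadjusted p below 0.05) and for none of the 4, and with the block for 1.59% of genes and again none. Blocked changes were −0.12 for Krt6a (adjusted p = 0.328), 0.11 for Krt6b (adjusted p = 0.568), −0.11 for Krt16 (adjusted p = 0.414) and −0.03 for Krt17 (adjusted p = 0.891).

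**Figure D4:**
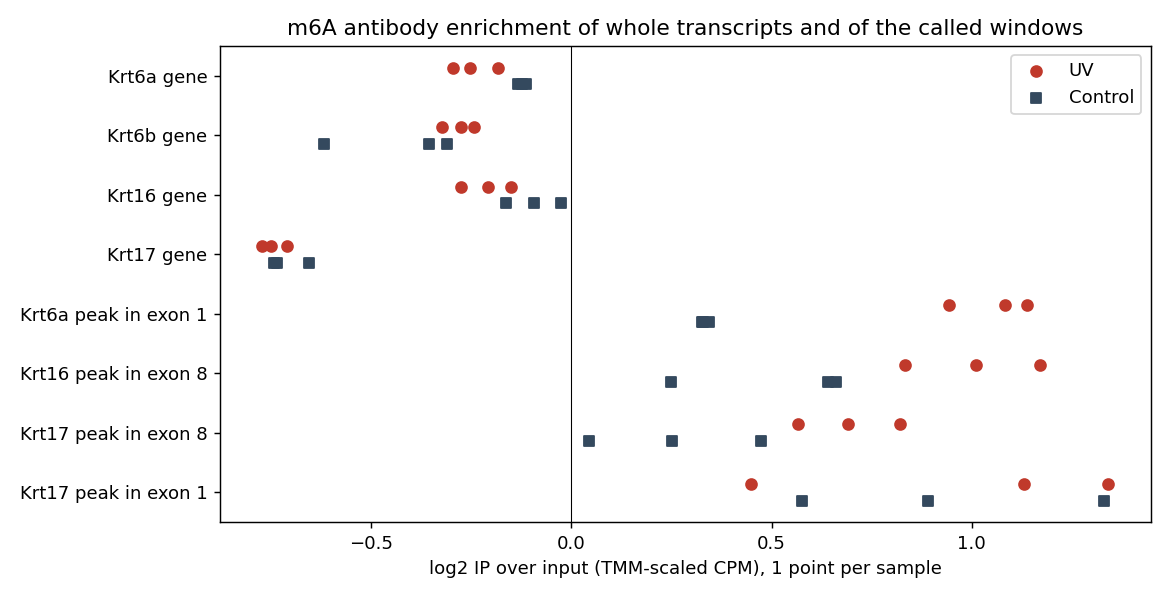
Log2 IP over input in each sample for the 4 whole transcripts and the 4 called windows, with UV samples as red circles and control samples as dark squares. Whole transcripts lie below 0 in every sample. The windows, all called in the UV arm, lie above 0. UV lies above control without overlap for the windows of Krt6a, Krt16 and Krt17 exon 8.

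The 4 windows sat at the ends of the transcripts. All were called in the UV arm and 0 in the control arm, so a higher enrichment in UV is partly what chose them. Of the 41273 peaks tested, 23776 were called in the UV arm. The Krt6a window took up the first 90 bases of exon 1 (chr15:101694218-101694307, GRCm38, minus strand), and a window of Krt17 the first 61 bases of its exon 1 (chr11:100260969-100261029, minus strand). The other Krt17 window was the last 120 bases of exon 8, the last exon (chr11:100256217-100256336, minus strand). The Krt16 window was the last 90 bases of its exon 8, also the last (chr11:100246091-100246180, minus strand).

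In the Krt6a window, log2 IP over input was 1.08, 1.14 and 0.94 in UV samples, against 0.33, 0.34 and 0.33 in control samples. The groups did not overlap and lay far apart beside their spread, but the window was called in the UV arm, which partly chose this direction. Of all peaks, of either arm, 10.2% had UV higher without overlap. The change was 0.75 (SE 0.28, adjusted p = 0.565) without pairing, where 0 of 41273 peaks were called and 8.13% had an unadjusted p below 0.05. It was 0.72 (SE 0.10, adjusted p = 0.000131) with the sample as a block, where 0.979% of peaks were called, 0.383% higher, and 0.513% of those called in the UV arm were higher. Leaving out 1 sample at a time in the blocked fit, which was added after seeing the data, gave 0.68 to 0.78 (adjusted p from 4.41e-10 to 0.0133). The median change was 0.09 over peaks called in the UV arm and 0.06 over peaks that start at a 5′ end. In the authors' deposited table this peak had a log2 change of 0.80 with an FDR of 0.0998, and 0.105% of peaks had an FDR below 0.05.

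In the Krt16 window, log2 IP over input was 1.01, 0.83 and 1.17 in UV samples against 0.25, 0.66 and 0.64 in control samples. The groups did not overlap. The change was 0.55 (SE 0.59, adjusted p = 0.85), and 0.50 (adjusted p = 0.103) with the block. Leaving out 1 sample in the blocked fit gave 0.35 to 0.60, called only without control sample 2 (0.54, adjusted p = 0.00485), where 3.25% of peaks were called higher. The last-exon window of Krt17 had 0.57, 0.69 and 0.82 in UV samples against 0.04, 0.47 and 0.25 in control samples, again without overlap, and a change of 0.51 (SE 0.37, adjusted p = 0.747). With the block it was 0.46 (adjusted p = 0.18), and it was called only without control sample 2 (0.55, adjusted p = 0.0187). Peaks that end at a 3′ end had a median change of 0.15. The exon 1 window of Krt17 had 0.45, 1.34 and 1.13 in UV samples and 0.89, 1.33 and 0.58 in control samples, with overlap, and a change of 0.15 (SE 0.38, adjusted p = 0.951). The authors' deposited table gave log2 changes of 0.58, 0.53 and 0.16 for these 3 peaks, with FDR values of 0.158, 0.65 and 0.999.

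All 4 windows were called enriched in UV, as were 93.3% of peaks of either arm. Since all 4 were called in the UV arm, this result and its contrast with control partly restate how the windows were chosen. Fitted log2 values were 1.07 for Krt6a (adjusted p = 0.000111), 0.99 for Krt16 (adjusted p = 0.0317), and 0.69 (adjusted p = 0.0189) and 0.97 (adjusted p = 0.00317) for exons 8 and 1 of Krt17. In control, where 87.8% of peaks were called, only the exon 1 window of Krt17 was called (0.81, adjusted p = 0.0118). With the block, the windows of Krt6a (0.33, adjusted p = 7.61e-05) and Krt16 (0.49, adjusted p = 0.000208) were called in control too, as were 88.3% of peaks. In UV the blocked values were 1.06 for Krt6a (adjusted p = 1.88e-14) and 1.00 for Krt16 (adjusted p = 4.75e-10). They were 0.69 (adjusted p = 2.24e-06) and 0.99 (adjusted p = 1.81e-06) for exons 8 and 1 of Krt17. With TMM factors taken from the peak table, which by its construction centres the average peak on no enrichment, all 4 UV values turned negative and uncalled (adjusted p 0.118 to 0.70), and Krt6a (−0.88, adjusted p = 0.0036) and Krt17 exon 8 (−1.02, adjusted p = 0.00757) were called depleted in control. For enrichment within a group, single samples were left out only in the fit without the block, which ignores the pairing of IP and input. There the UV call of the Krt16 window was lost when any 1 of the UV samples, or control sample 1, was left out (adjusted p at most 0.0898). That of Krt17 exon 8 ended without UV samples 2 or 3 (up to 0.0734) and that of Krt17 exon 1 without UV sample 2 (0.0585). The control call of Krt17 exon 1 ended without control sample 1 (0.0691).

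Reads in the Krt6a and Krt16 windows did not scale with reads in the genes. Window and gene reads come from separate deposited tables, and whether both were counted with the same read filters is not known, so each percentage below is a ratio of the 2 tables. In input, the reads of the Krt6a window were equal to 0.854%, 0.997% and 1.73% of the gene's reads in UV samples, against 5.36%, 15.1% and 1.98% in control samples, where its length alone would give 3.99%. The share was highest in control sample 2, which had the least Krt6a. Input levels in the window were 29.6, 30.4 and 20.9 CPM in UV samples and 19.1, 18.3 and 25.8 CPM in control samples. The window thus varied 1.66-fold over samples between which the gene varied 28.6-fold. Reads of the Krt16 window were equal to 0.240%, 0.271% and 0.271% of the gene's input reads in UV samples, against 1.25%, 3.89% and 0.471% in control samples, and varied 4.27-fold while the gene varied 69.3-fold.

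The Krt17 windows kept a steadier ratio, for exon 8 of 0.805%, 0.619% and 0.607% in UV samples against 0.781%, 0.523% and 0.864% in control samples. The mean log2 change of the window's share in input was −2.26 for Krt6a and −2.34 for Krt16, against −0.09 as the median over peaks called in the UV arm. In IP it was −1.41 for Krt6a and −1.74 for Krt16, so both shares were lower in UV. No other gene of the count table overlaps these windows in position. Sharing of window reads with similar keratin genes was not tested. The part of this mismatch in the window's change of enrichment was not tested either.

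**Figure D5:**
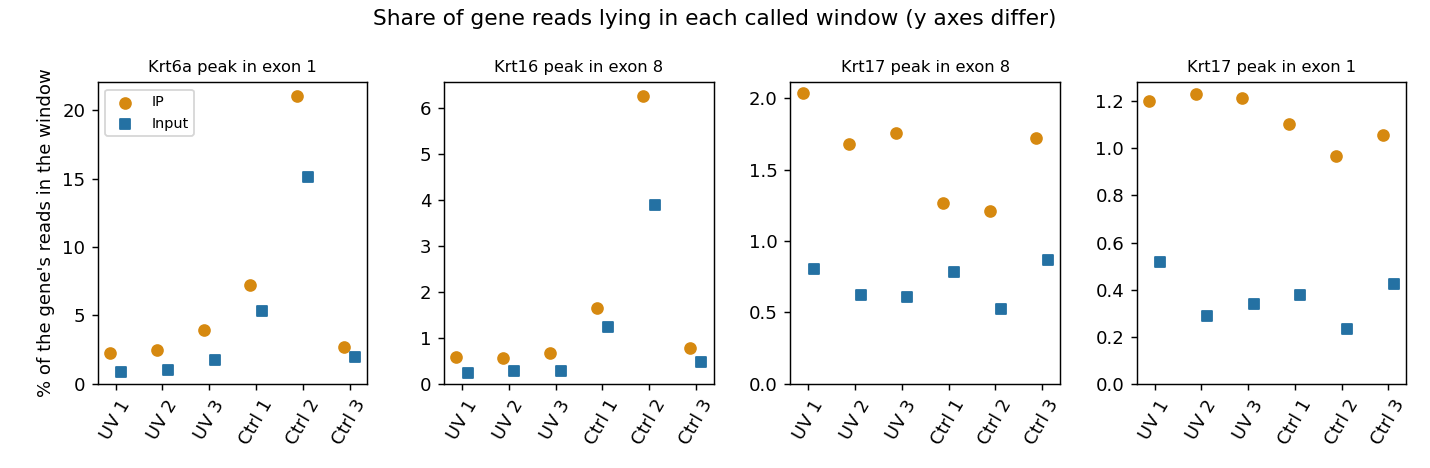
Reads of each called window in the peak table as a percent of the gene's reads in the gene table, for IP (orange circles) and input (blue squares) in each sample. The ratio is largest in control sample 2 for Krt6a and Krt16, at 15.1% and 3.89% in input, and lies under 1% in input in every sample for Krt17.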

How the data were processed

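RNA of 6 skin samples was sequenced as IP and input libraries with a stranded mRNA kit, per the labels. The deposited tables hold raw read counts per gene and per peak for 12 libraries, made by the authors. STAR 2.5.3a and GRCm38 are named in the submitters' processing notes. No source used here names the counter, the peak caller, strand use or duplicate handling. In each library between 79.5% and 83.6% of counts from 1 to 20 were even. The peak table also holds a log2 change, p-value and FDR per peak, computed by the authors per the file headers. Peak starts are counted from 0 in the deposited table (1966 met an exon start after adding 1, at most 118 at other offsets) and are printed counting from 1.

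Counts were tested with edgeR 4.0.16 in R 4.3.3 (TMM, filterByExpr, quasi-likelihood F test, adjusted p below 0.05 over all genes or peaks). Expression used the 6 input libraries, IP abundance the 6 IP libraries, and enrichment and its change all 12 with 4 group means. Peaks took library sizes and TMM factors from the gene table. Alternatives were library size only, DESeq2 1.42.0, no filter, halved counts, a 2-fold requirement, TMM on the peak table, a stricter FDR for the authors' peaks, summed Krt6a and Krt6b, a sample block, and leaving out each sample. Replicates differed by more than counting noise (a chi-square statistic of 48.0 to 167 times its degrees of freedom over pairs within a group).

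IP and input of a sample correlated in their departures from group means at 0.61 to 0.874 over 11931 genes, and both come from the same sample per the labels, so the block pairs them. Equal numbers of UV and control samples did not pair (−0.262 to 0.114 in input).

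The members and gene lists were chosen with earlier results of these data known. Named by rule were the members, their peaks, adjacent keratin genes, each list's called genes (up to 4 per direction) and its 3 most abundant per kilobase, and the 8 genes most alike. Genes called without control sample 3, Gsta4's values, Itgb4 and the genes drawn beside the keratins were singled out after their values were seen. Some genes that met these rules are not reported here.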

Additional observations from a re-analysis of the deposited data

How the results depend on the processing

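The 4 expression changes kept their direction in the alternatives run (library size only, DESeq2, no filter, halved counts, summed Krt6a and Krt6b, a block, and 1 sample left out). Leaving out 1 sample at a time gave log2 changes of 1.63 to 3.43 for Krt6a, 1.39 to 3.56 for Krt6b, 1.44 to 3.58 for Krt16 and 0.05 to 0.34 for Krt17. Krt6a was called with no low-count filter (2.12), and it, Krt6b and Krt16 without control replicate 3; the cause was not tested. With the number shared by UV and control as a replicate block, the changes were 2.74, 3.02, 3.04 and 0.18, none called, although those numbers do not pair samples. Genes called higher and lower numbered 455 and 1019 with library size only, 1317 and 1259 with DESeq2, 1104 and 1048 with no filter, and 369 and 344 with that block. Leaving out 1 sample gave 101 to 1237 higher and 118 to 863 lower. Genes with higher and lower m6A enrichment in UV, 3 and 0 in the fit without pairing, numbered 5 and 0 with library size only, 47 and 3 with DESeq2, 22 and 0 with no filter, and 211 and 188 with the sample block. They numbered 0 to 7 higher when 1 sample was left out. With an unadjusted p below 0.05 there were 1109.

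The change of enrichment turned to −0.076 for Krt6b when it was summed with Krt6a, and to 0.053 for Krt17 with library size only, both uncalled. Leaving out single samples gave the exon 1 window of Krt17 a change of −0.076 (without UV replicate 2) to 0.45 (without UV replicate 1), with −0.021 without Control replicate 3. With the sample block it was −0.10 without UV replicate 2 and −0.072 without Control replicate 3; the cause was not tested. TMM on the peak table turned the windows' enrichment negative, with all 4 UV calls lost and Krt6a and Krt17 exon 8 called depleted in control. It gave −0.14 in UV and −0.88 in control for Krt6a, −0.22 and −0.75 for Krt16, −0.53 and −1.02 for Krt17 exon 8, and −0.25 and −0.38 for Krt17 exon 1. The 4 windows were uncalled in the authors' deposited table at an FDR of 0.01, as at 0.05. Gene levels rest on 457 to 196316 input reads per gene and sample, with the fewest for Krt6b in control sample 2. The Krt17 exon 1 window rests on as few as 42, and the part of depth in these values was not tested.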
